A study of Mus musculus with 6 samples.

Results

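The genes described here are 10 components of the TGF-beta pathway. They were measured in 4T-1, a line derived from a mammary carcinoma of the mouse. They were taken by symbol from the deposited count table of 55487 genes, and all 10 were present. They comprise the ligand genes Tgfb1, Tgfb2 and Tgfb3, the latent ligand-binding protein gene Ltbp3, the receptor genes Tgfbr1 and Tgfbr2, the signal transducer gene Smad3 and the inhibitor genes Smad7, Skil and Pmepa1. All 10 passed the filter on low counts, and the lowest count of any of them in any library was 74. RNA sequencing was done on 6 untreated libraries, 3 of wild-type cells (library names with NC) and 3 of cells labelled Lyplal1 knockout (library names with sg2). The labels do not say whether the knockout cells are 1 clone, nor whether the libraries of a group came from separate cultures, so p-values measure only the spread between these libraries. The series title ties LYPLAL1 to removal of palmitate from the DNA sensor cGAS and to immunotherapy. The question addressed here is whether transcripts of the TGF-beta pathway differed between the groups.

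TGF-beta is secreted in a latent complex, in which its own propeptide and a latent TGF-beta binding protein hold the ligand until it is released. Active ligand binds the type II receptor, which phosphorylates the type I receptor, which in turn phosphorylates SMAD2 and SMAD3, and these enter the nucleus with SMAD4. The pathway induces its own inhibitors, among them SMAD7, SnoN (the product of Skil) and PMEPA1, so these transcripts are widely used as readouts of signalling. In mammary carcinoma cells the pathway is known both for growth arrest and for invasive, mesenchymal behaviour.

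RefSeq promoter windows on GRCm38.p6, from 250 bases before to 50 bases after the annotated start, were matched by symbol for 6 of the 10 genes, with 7 windows in all. Smad7, Skil, Pmepa1 and Tgfb3 had no entry in the table used. 3 windows are shown because these genes span the range of change among the secreted components, from the ligand gene with the largest fall to the ligand gene with the smallest. Each window is written in the direction of transcription, and capitals mark the SMAD-binding element CAGAC or the AP-1 site TGAGTCA on either strand.
Tgfb2, chr1:186705940-186706239, minus strand: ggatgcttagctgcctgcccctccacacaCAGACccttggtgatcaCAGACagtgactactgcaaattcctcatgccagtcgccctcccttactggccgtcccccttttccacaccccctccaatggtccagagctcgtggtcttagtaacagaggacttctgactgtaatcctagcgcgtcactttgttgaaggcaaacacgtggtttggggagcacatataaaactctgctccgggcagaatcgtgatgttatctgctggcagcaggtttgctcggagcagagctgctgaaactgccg
Ltbp3, chr19:5740650-5740949, plus strand: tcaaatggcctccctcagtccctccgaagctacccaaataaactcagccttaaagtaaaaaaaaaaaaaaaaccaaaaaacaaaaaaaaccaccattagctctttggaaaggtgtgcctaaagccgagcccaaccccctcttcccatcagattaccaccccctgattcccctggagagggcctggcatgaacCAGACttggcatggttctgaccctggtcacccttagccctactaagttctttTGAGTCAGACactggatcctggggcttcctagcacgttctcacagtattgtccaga
Tgfb1, chr7:25686752-25687051, plus strand: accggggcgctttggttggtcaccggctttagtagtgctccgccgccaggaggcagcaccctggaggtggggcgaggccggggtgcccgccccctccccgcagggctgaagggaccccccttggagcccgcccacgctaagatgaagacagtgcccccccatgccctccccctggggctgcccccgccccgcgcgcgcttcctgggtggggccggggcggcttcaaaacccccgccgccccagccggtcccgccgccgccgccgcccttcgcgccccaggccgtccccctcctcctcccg
The Tgfb2 window held 2 CAGAC matches, beginning 221 and 204 bases before the start. The Ltbp3 window also held 2, beginning 58 bases and 1 base before the start, and the second overlaps an AP-1 match. The Tgfb1 window had no match to either motif, and its GC content was 77.0%, against 54.3% for Tgfb2, 48.0% for Ltbp3 and a median of 52.7% over all windows. Over the 7 windows, 4 held CAGAC on either strand, beside 49.6% of all 32851 windows of the same length. The AP-1 site was in 1 of the 7 and in 5.20% of all windows, and the palindromic SMAD element GTCTAGAC was in 0 of the 7 and in 0.213% of all windows. These matches describe letters in these windows, not binding.

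Total counts per library ran from 16731209 to 17108975. Of 13022 genes tested, 41.3% were called higher and 40.9% lower in knockout at an adjusted p under 0.05 with edgeR (82.3% in either direction), and in 83.1% the groups did not overlap in CPM, the count relative to the TMM-scaled library size, so a call in itself sets no gene apart in this comparison. Lyplal1 RNA was present in both groups, with 68 to 76 counts in wild type and 48 to 58 in knockout, and its log2 fold change of -0.28 ± 0.15 (SE) was not called (edgeR adjusted p = 0.0886). Upper-quartile factors gave a call, at -0.41 (edgeR adjusted p = 0.0140). On the deposited TPM it was also called, with limma-trend, at -0.44 with a pseudocount of 1 (adjusted p = 1.14e-03) and at -0.48 with 0.1 (adjusted p = 1.48e-03). Gene-level counts do not show whether a small edit is present in the transcript. Of 8 markers of mammary epithelial cells, 5 fell, 1 rose, Krt14 was not called and Krt5 was too low to test, with a summed level of 3912 to 4024 CPM in wild type against 3074 to 3076 CPM in knockout. Of 7 fibroblast markers only Pdgfra was high enough to test, and it rose, from 1135 to 1187 counts to 2559 to 2849. The list summed to 63.9 to 66.4 CPM in wild type against 169 to 179 CPM in knockout, and Lum, Thy1 and Pdgfrb had no wild-type count. Of 6 leukocyte markers only Cd68 was tested. Its counts went from 142 to 149 to between 7054 and 7657, while the pan-leukocyte marker Ptprc had 3 to 7 counts in wild type and 1 to 4 in knockout. The leukocyte list summed to 8.29 to 8.54 CPM and 440 to 483 CPM. No endothelial marker was tested, and their sum was 0.168 to 0.223 CPM in wild type against 1.06 to 6.48 CPM in knockout. Knockout replicate 3 held the highest count of several stromal markers, among them Col3a1 with 6, 3 and 64 counts in knockout replicates 1 to 3. For the 10 genes described here, the CPM of that library was 0.919 to 1.06 times the mean of the other knockout libraries. The part of these other-cell markers in the results was not tested. In bulk RNA, fewer cells of a kind and less RNA per cell cannot be told apart.

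All 10 genes were lower in knockout. Each was called with edgeR, and in none did the groups overlap, which was also so in 83.1% of all tested genes. Their median log2 fold change was -1.18, beside -0.00 over all tested genes, and the share of tested genes called lower was 40.9%. The members were picked with earlier results of these data known, so this count is a description. The falls were unequal, from 1.12-fold for Tgfbr1 to 4.95-fold for Tgfb2. Over 15 other processings each gene stayed lower and called. The median log2 fold change of all genes was -0.13 with upper-quartile factors, -0.19 on log2(TPM + 1) and -0.21 on log2(TPM + 0.1). Calls split into 5382 higher and 5329 lower with the main scaling, 4115 and 6591 on log2(TPM + 1), and 4102 and 6569 on log2(TPM + 0.1). Relative to the median of all genes, Tgfb1 lay at -0.19 with the main scaling and with upper-quartile factors, at -0.20 on log2(TPM + 1) and at -0.19 on log2(TPM + 0.1). Tgfbr1 lay at -0.16, -0.16, -0.17 and -0.17 in the same order. Tgfb2 lay at -2.31, -2.31, -2.03 and -2.28. These settings shift all genes by nearly the same amount, except where the TPM pseudocount weighs. Values relative to the median could therefore hardly differ, and they do not test the small falls of Tgfb1 and Tgfbr1.

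**Figure D1:**
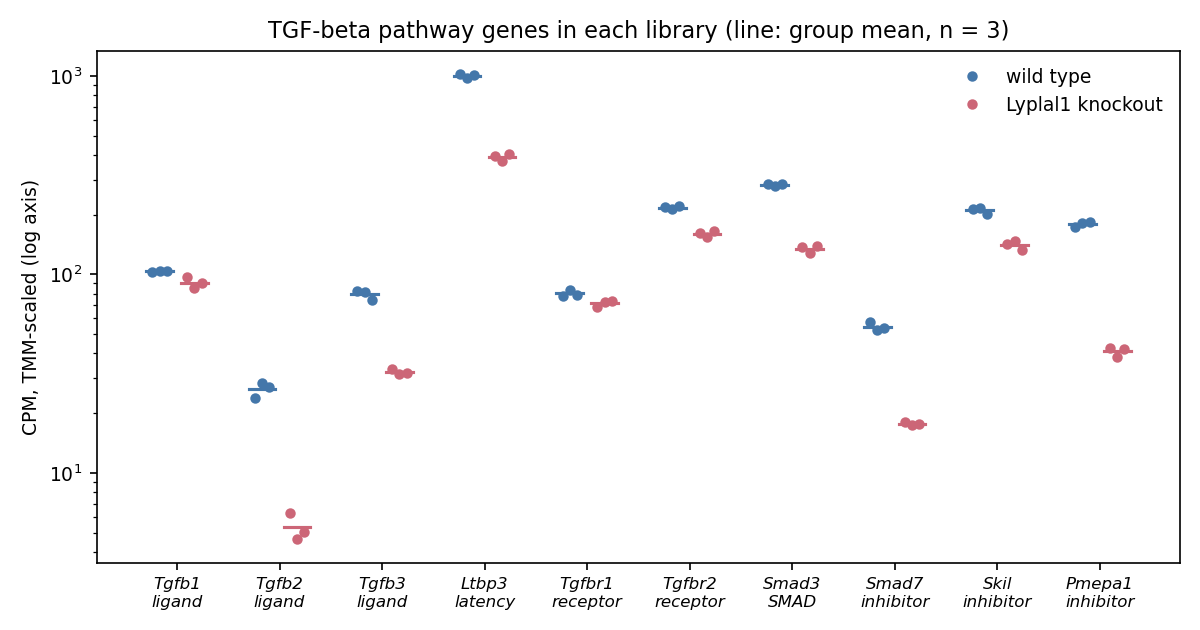
Level of each of the 10 genes in every library, in CPM on a log axis. Points are libraries, short lines are group means (n = 3 each), and in every gene the 3 knockout libraries lie below the 3 wild-type libraries.

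The ligand genes fell to different degrees. Tgfb1 (ENSMUSG00000002603, chromosome 7, 25687002 to 25705077 on GRCm38) encodes the ligand found most widely in tissues and tumours. In wild type, replicates 1 to 3 held 1838, 1856 and 1845 counts, against 1547, 1368 and 1431 in the knockout replicates. The wild-type libraries were nearly equal and lay above all knockout libraries, of which replicate 1 was the closest. Scaled, the means were 103 ± 0.776 CPM and, in knockout, 90.7 ± 5.68 CPM (SD, n = 3 each), a log2 fold change of -0.19 ± 0.0441 (SE; edgeR adjusted p = 3.34e-04). Left out in turn, single libraries moved this value between -0.23 and -0.14.

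Tgfb2 (ENSMUSG00000039239, chromosome 1, 186622792 to 186705989) encodes a ligand that needs the coreceptor betaglycan for efficient receptor binding. Wild-type libraries had 427, 504 and 481 counts, knockout libraries 101, 74 and 80. Every knockout library lay far below every wild-type library, and of the 10 genes it had the highest relative spread in each group. Its level went from 26.4 ± 2.29 to 5.32 ± 0.883 CPM (SD, n = 3 each), a 4.95-fold fall (log2 fold change -2.31 ± 0.103, edgeR adjusted p = 3.47e-17). Tgfb3 (ENSMUSG00000021253, chromosome 12, 86056745 to 86079041), the ligand known for palate closure and mammary involution in the mouse, had 1471, 1454 and 1322 counts in wild type and 534, 506 and 508 in knockout. The knockout libraries were close together, at well under every wild-type value. The level went from 79.3 ± 4.33 to 32.3 ± 0.944 CPM, 2.45-fold lower (log2 fold change -1.30 ± 0.053, edgeR adjusted p = 4.18e-18). Its exons share 257 bases with Gm48008 on the opposite strand, and whether counting used strand is unknown here.

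Per transcript length, the ligands also changed their proportions. In the deposited TPM the 3 genes summed to 208, 212 and 200 over the wild-type replicates in order, and to 112, 101 and 102 over the knockout replicates. Tgfb3 had the highest ligand TPM in each wild-type library, at 49.8%, 48.6% and 46.5% of the sum, with Tgfb1 at 41.8%, 41.6% and 43.6%. In each knockout library Tgfb1 led, at 63.6%, 62.6% and 63.4%, with Tgfb3 at 32.7%, 34.5% and 33.5%. In CPM, which has no length divisor, mean Tgfb1 exceeded mean Tgfb3 in both groups. The means were 103 against 79.3 CPM in wild type and 90.7 against 32.3 CPM in knockout. The lead of Tgfb3 in wild type therefore rests on the gene lengths used for TPM. Tgfb2 made up 8.45%, 9.83% and 9.89% of the sum in wild type and 3.62%, 2.95% and 3.09% in knockout. The groups did not overlap in any of these shares. An exact two-sided permutation test over libraries gave p = 0.1 for each share, which is the smallest value that 3 libraries against 3 allow, before and after adjustment over the 6 sums, shares and ratios tested.

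**Figure D2:**
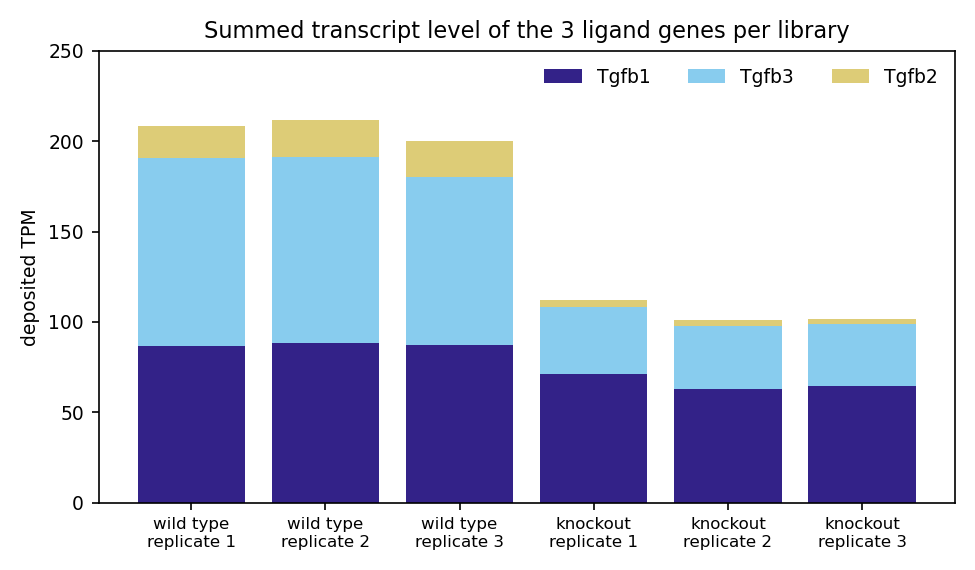
Deposited TPM of Tgfb1, Tgfb3 and Tgfb2 stacked for each of the 6 libraries. The summed bar height is 200 to 212 TPM in wild type and 101 to 112 TPM in knockout, and the Tgfb1 segment is the smaller of the leading pair in wild type and the larger in knockout.

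Ltbp3 (ENSMUSG00000024940, chromosome 19, 5740904 to 5758532) encodes a latent TGF-beta binding protein, which aids secretion of the latent complex and ties it to the matrix. It had 18299, 17380 and 17982 counts in wild type and 6311, 5939 and 6439 in knockout. It was the most abundant of the 10 transcripts in both groups, and the groups stood wide apart. Its level went from 1002 ± 24.6 to 390.1 ± 17.6 CPM (SD, n = 3 each), 2.57-fold lower (log2 fold change -1.36 ± 0.0346, edgeR adjusted p = 1.09e-22). Of 11 other genes listed under TGF-beta latency and activation, 8 could be tested, 7 fell and none rose. The list had a median log2 fold change of -0.42, beside -0.00 for all tested genes, of which 40.9% fell and 41.3% rose. Thbs1, which encodes the latent-complex activator thrombospondin 1, was 2.08-fold lower in knockout (log2 fold change -1.06 ± 0.0357), and Ltbp1 1.87-fold lower (-0.90 ± 0.0365). Furin, the protease that cleaves the ligand precursors, was 1.81-fold lower (-0.86 ± 0.0358). Itgav, the alpha subunit of the integrins that release latent ligand, was 1.41-fold lower (-0.49 ± 0.0364). Its partner Itgb6 was low, at 7.21 ± 0.852 and 6.37 ± 0.809 CPM (SD, n = 3 each), and was not called with the main scaling (log2 fold change -0.18, edgeR adjusted p = 0.18), though it was called lower at -0.31 under upper-quartile scaling (edgeR adjusted p = 0.0227).

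Both signalling receptor genes fell, by less than Tgfb2 and Tgfb3. Tgfbr1 (ENSMUSG00000007613, chromosome 4, 47353222 to 47414931) encodes the type I receptor kinase. It had 1394, 1494 and 1406 counts in wild type and 1092, 1165 and 1167 in knockout. Scaled to CPM, the lowest wild-type library stood at 77.8 and the highest knockout library at 73.4, so the groups were adjacent without overlap. Its log2 fold change was -0.17 ± 0.0456, with a 95% interval of -0.26 to -0.07 (edgeR adjusted p = 1.72e-03). Tgfbr2 (ENSMUSG00000032440, chromosome 9, 116084293 to 116175360), the type II receptor that binds ligand, had 3896, 3796 and 3935 counts in wild type and 2574, 2477 and 2615 in knockout. Each group was tight and the knockout libraries were all lower. Its level went from 217 ± 4.22 to 160.0 ± 5.02 CPM (SD, n = 3 each), 1.36-fold lower (log2 fold change -0.44 ± 0.0357, edgeR adjusted p = 1.13e-11). The ratio of Tgfbr2 to Tgfbr1 in deposited TPM was 2.23, 2.03 and 2.23 over the wild-type replicates, against 1.88, 1.70 and 1.79 over the knockout replicates, with no overlap (exact permutation p = 0.1, the smallest possible).

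Among 6 other receptors and coreceptors, 4 were tested, of which 2 fell and 1 rose. Over all tested genes, 40.9% were called lower and 41.3% higher. Tgfbr3, which encodes betaglycan, the coreceptor that presents TGF-beta 2 to the type II receptor, had 640, 584 and 636 counts in wild type and 3, 8 and 16 in knockout. It was near absent from every knockout library, 60.8-fold lower on the fitted scale (log2 fold change -5.93 ± 0.166, edgeR adjusted p = 1.14e-19). Its size rests on few knockout counts, with a log2 fold change of -6.62 without knockout replicate 3 and -4.18 on log2(TPM + 1). Cd109, a membrane protein that binds TGF-beta and dampens signalling in human cells, had 705, 719 and 663 counts in wild type and 55, 55 and 64 in knockout, 10.7-fold lower (log2 fold change -3.42 ± 0.0902, edgeR adjusted p = 2.50e-22). Tgfbrap1, a protein that associates with TGF-beta receptors, rose 2.57-fold (log2 fold change 1.36 ± 0.0516, edgeR adjusted p = 8.06e-19). Eng, the endoglin coreceptor, stood at 101 ± 2.93 and 105 ± 2.71 CPM (SD, n = 3 each) and was not called with the main scaling (edgeR adjusted p = 0.212), whereas on log2(TPM + 1) it was called lower at -0.15 (limma-trend adjusted p = 2.86e-03).

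Smad3 (ENSMUSG00000032402, chromosome 9, 63646767 to 63757994) encodes the receptor-activated transcription factor that binds DNA. Wild-type libraries had 5096, 4976 and 5050 counts, knockout libraries 2187, 2057 and 2219. Replicates were close together in both groups, and the level went from 282 ± 3.01 to 135 ± 5.82 CPM (SD, n = 3 each). That is a 2.09-fold fall (log2 fold change -1.07 ± 0.0365, edgeR adjusted p = 8.20e-20). The other SMADs that carry the TGF-beta signal changed less than Smad3. Smad4, the shared partner, was 1.13-fold lower (log2 fold change -0.17 ± 0.0364, edgeR adjusted p = 1.26e-04). Smad2, named after its value was seen, was 1.09-fold lower (-0.12 ± 0.0402, edgeR adjusted p = 6.88e-03) and was not called with DESeq2 (adjusted p = 0.0549). The 95% interval for Smad3, -1.14 to -0.99, did not meet that for Smad2, -0.21 to -0.04. Of the 6 genes listed as other SMADs and adaptors, 4 fell and 2 rose, beside 40.9% called lower and 41.3% higher over all tested genes. Smad6, an inhibitory SMAD, was 1.51-fold lower (-0.60 ± 0.117), and Trim33, a ubiquitin ligase that binds SMAD2 and SMAD3, 1.29-fold lower (-0.37 ± 0.0399). Fkbp1a, the immunophilin that holds the type I receptor inactive, rose 1.42-fold (0.50 ± 0.0343). Zfyve9, the SMAD anchor protein SARA, was called higher at 0.19 ± 0.0466 (edgeR adjusted p = 5.68e-04), but stood at -0.02 on both TPM scales and was not called there, nor under upper-quartile scaling (0.06, edgeR adjusted p = 0.252).

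The 3 feedback inhibitors all fell, each by a different amount. Pmepa1 (ENSMUSG00000038400, chromosome 2, 173224458 to 173276533), which keeps SMAD2 and SMAD3 from the receptor, had 3089, 3235 and 3258 counts in wild type and 678, 617 and 665 in knockout. The lowest wild-type library held several times the count of any knockout library. Its level went from 179 ± 5.77 to 40.9 ± 2.09 CPM (SD, n = 3 each; log2 fold change -2.13 ± 0.0456, edgeR adjusted p = 2.41e-24). Smad7 (ENSMUSG00000025880, chromosome 18, 75367529 to 75395935), which recruits ubiquitin ligases to the type I receptor, had 1032, 933 and 955 counts in wild type and 288, 280 and 281 in knockout. The knockout libraries were almost equal, and the level went from 54.5 ± 2.74 to 17.7 ± 0.264 CPM (SD, n = 3 each), 3.08-fold lower (log2 fold change -1.62 ± 0.0613, edgeR adjusted p = 7.36e-19). Skil (ENSMUSG00000027660, chromosome 3, 31095058 to 31122577), whose product SnoN represses SMAD target genes, had 3833, 3873 and 3585 counts in wild type and 2281, 2357 and 2115 in knockout. All knockout libraries were lower, with a smaller gap than for the other inhibitors, at 211 ± 8.22 and 141 ± 7.17 CPM (log2 fold change -0.58 ± 0.0402, edgeR adjusted p = 4.92e-13). The 95% intervals of these changes, -2.22 to -2.03 for Pmepa1, -1.75 to -1.49 for Smad7 and -0.66 to -0.50 for Skil, did not meet.

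Of 10 other inhibitors, all tested, 5 fell, 4 rose and Wwp1 was not called, with a median log2 fold change of -0.16. These counts lay near the shares over all tested genes, 40.9% called lower and 41.3% higher. Wwp1, a ubiquitin ligase, stood at -0.05 (edgeR adjusted p = 0.402) and was called lower at -0.25 on the log2(TPM + 1) scale (limma-trend adjusted p = 6.60e-03). The highest rise was that of Smurf1, a ubiquitin ligase that works with SMAD7, with 3061, 3071 and 3113 counts in wild type and 7820, 7650 and 7910 in knockout. The knockout libraries were well above the wild-type libraries, opposite to Smad7 itself (2.83-fold higher, log2 fold change 1.499 ± 0.033, edgeR adjusted p = 4.56e-24). The corepressor gene Tgif1 rose 1.83-fold (0.87 ± 0.0341), and Strap, which encodes a partner of SMAD7 at the receptor, rose 1.68-fold (0.75 ± 0.0329). Ski, the close relative of Skil, was 1.37-fold lower in knockout (-0.46 ± 0.039).

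**Figure D3:**
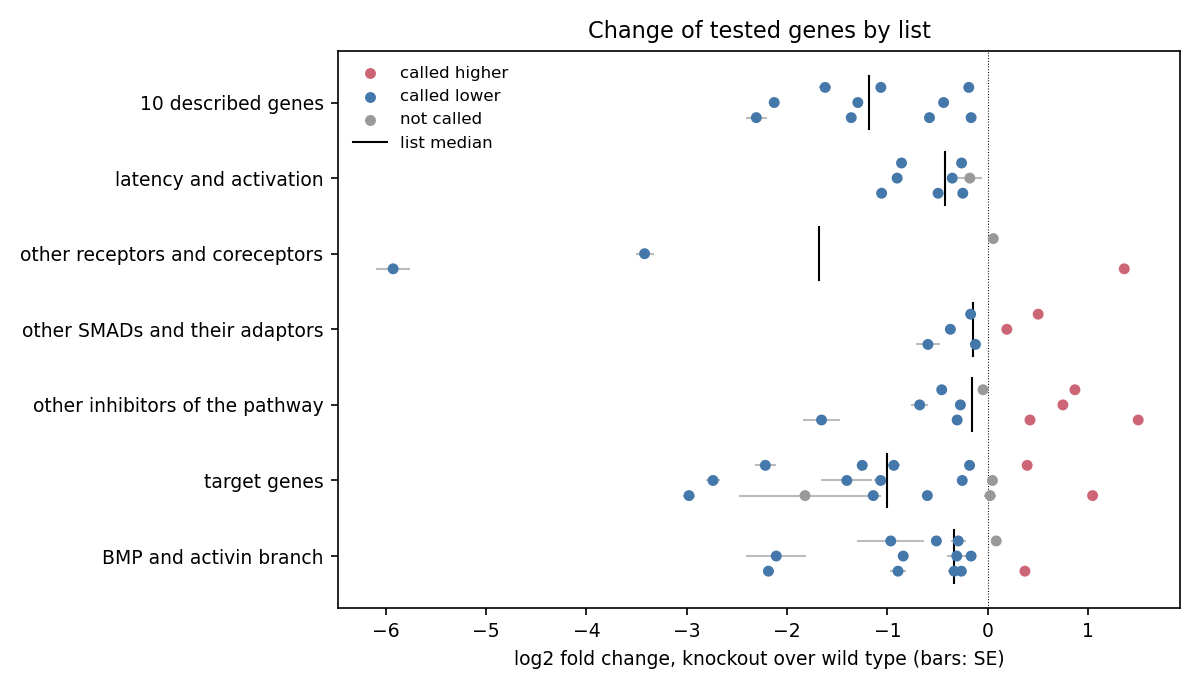
Log2 fold change, knockout over wild type, of the 10 described genes and of the tested genes of the 6 pathway lists, with standard errors. Blue points were called lower, red higher and grey not called, and black lines mark list medians, which run from -1.68 for the other receptors and coreceptors to -0.15 for the other SMADs and their adaptors.

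Of 20 genes known as TGF-beta targets in various cell types, 16 were tested, 11 fell, 2 rose and 3 were not called. The list had a median log2 fold change of -1.002, beside -0.00 for all tested genes, of which 40.9% fell and 41.3% rose. Ccn2, a matricellular protein induced by TGF-beta, had 2716, 2592 and 2789 counts in wild type and 285, 292 and 342 in knockout. No knockout library came near a wild-type one, and the gene was 7.88-fold lower (log2 fold change -2.98 ± 0.057, edgeR adjusted p = 3.36e-25). Id1, Id2 and Id3, named after their values were seen, encode inhibitors of helix-loop-helix factors that respond to BMP and, in a manner that depends on the cell type, to TGF-beta. They were 4.65-fold, 1.91-fold and 2.21-fold lower. Against these falls, Klf10, the TGF-beta-inducible early gene, rose 2.06-fold (1.04 ± 0.0356, edgeR adjusted p = 7.32e-20), and Tgm2, a transglutaminase, rose 1.31-fold (0.39 ± 0.0359). Ccn2 shares 665 exon bases with Gm15270 on the opposite strand. Tgfbi, named after its values were seen, was not called with the main processing (edgeR adjusted p = 0.0546). It had 88, 85 and 77 counts in wild type and 10, 5 and 48 in knockout, with the 48 in replicate 3, the library with the most counts of Col3a1. Without that library its log2 fold change was -3.29 (edgeR adjusted p = 4.46e-14), against -1.82 with it. With all 6 libraries it was called lower under upper-quartile scaling (edgeR adjusted p = 0.0428), with the 1 CPM filter (edgeR adjusted p = 0.0491), with limma-voom (-2.41, adjusted p = 3.90e-05) and with limma-trend on both TPM scales (adjusted p = 1.67e-03 and 4.39e-03). Without knockout replicate 2 it was also called, at -1.35 (edgeR adjusted p = 0.0466). Col4a1 and Sphk1, the others not called, had log2 fold changes of 0.05 and 0.02, and both were called lower on log2(TPM + 1), at -0.16 and -0.18 (limma-trend adjusted p = 1.24e-03 and 0.0146). Without knockout replicate 3, Col4a1 was called higher, at 0.06 (edgeR adjusted p = 0.0287).

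The BMP and activin branch, which shares the receptor architecture and SMAD4, was followed as a separate list. Of 21 genes, 13 were tested, 11 fell, 1 rose and Bmp7 was not called. The list had a median log2 fold change of -0.33, beside -0.00 for all tested genes, of which 40.9% fell and 41.3% rose. Bmp7 stood at 0.08, was called higher without knockout replicate 2 (0.13, edgeR adjusted p = 0.0107) and lower on log2(TPM + 1) (-0.12, limma-trend adjusted p = 0.0191). The largest called fall was that of Inhba, the activin A subunit, whose product signals through SMAD2 and SMAD3. It had 3144, 3234 and 2928 counts in wild type and 610, 674 and 545 in knockout, 4.55-fold lower with no overlap (log2 fold change -2.19 ± 0.0561, edgeR adjusted p = 2.41e-19). Fstl3, a binding protein that neutralises activin, was 1.86-fold lower (-0.89 ± 0.0772), and its exons share 1157 bases with Prss57 on the opposite strand. The BMP receptor gene Bmpr1a was 1.43-fold lower (-0.51 ± 0.041). The BMP-activated SMADs parted, with Smad5 1.79-fold lower (-0.84 ± 0.0379) and Smad1 1.29-fold higher (0.37 ± 0.0438).

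Ordered by deposited TPM, which sets counts against gene length, the wild-type means were 471 for Ltbp3, 217 for Smad3, 155 for Pmepa1, 113 for Tgfbr2, 99.9 for Tgfb3, 92.7 for Skil, 87.4 for Tgfb1, 52.3 for Tgfbr1, 51.4 for Smad7 and 19.4 for Tgfb2. Neighbours whose libraries overlapped were Tgfb3 and Skil, Skil and Tgfb1, and Tgfbr1 and Smad7. In knockout the means were 159 for Ltbp3, 89.8 for Smad3, 72.1 for Tgfbr2, 66.4 for Tgfb1, 53.7 for Skil, 40.3 for Tgfbr1, 35.2 for Tgfb3, 30.7 for Pmepa1, 14.5 for Smad7 and 3.39 for Tgfb2. Among neighbours, only Tgfbr2 and Tgfb1 overlapped there. Pmepa1 went from the third place to the eighth, while Ltbp3, Smad3, Smad7 and Tgfb2 kept their places. The 3 feedback inhibitors summed to 296 to 303 TPM in wild type and 94.6 to 102 TPM in knockout.

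Tgfb2 lies on the same chromosome as the targeted gene, 505 kb from Lyplal1. The surrounding genes were looked at after their values were seen. Of 42 annotated genes within 1000 kb of Lyplal1, 7 were tested and 5 were called higher in knockout. Lyplal1 itself was not called, and Tgfb2 was the gene called lower. Over all tested genes, 41.3% were called higher, 40.9% lower and 82.3% in either direction. Rrp15, a ribosome biogenesis gene 604 kb from Lyplal1 and next to Tgfb2 among the tested genes, had 811 counts summed over wild type and 1357 summed over knockout (log2 fold change 0.90 ± 0.0778, edgeR adjusted p = 3.83e-11). On the other side, Eprs rose by a log2 fold change of 1.36 ± 0.0332, Bpnt1 by 1.01 ± 0.0581 and Rab3gap2 by 0.59 ± 0.0395. Iars2 was called at 0.11 ± 0.0372 (edgeR adjusted p = 7.49e-03), but its sign turned under upper-quartile scaling, to -0.02, and on both TPM scales, to -0.09 and -0.10. The call of Iars2 was also lost without wild-type replicate 1 (edgeR adjusted p = 0.0531).

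**Figure D4:**
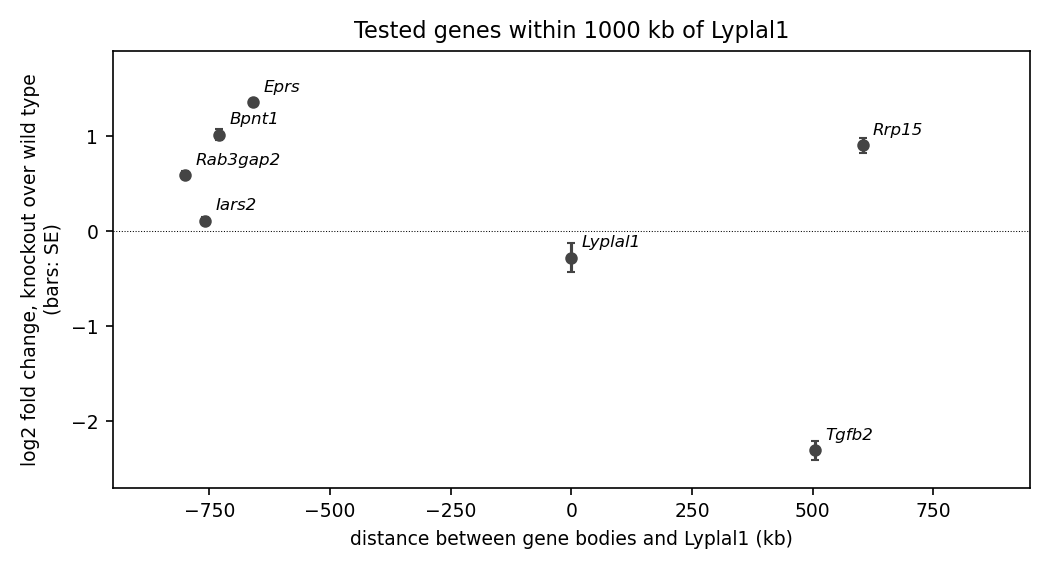
Log2 fold change, knockout over wild type, of the 7 tested genes within 1000 kb of Lyplal1, against the distance between each gene body and that of Lyplal1 in kb, with standard errors. Tgfb2, at 505 kb, lies at -2.31, Lyplal1 at -0.28 and the other 5 genes above 0 with the main scaling.

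For each of the 10 genes, the tested gene with the most similar profile was sought by Euclidean distance between centred log2 CPM values over the 6 libraries, among 13021 genes. With 2 groups this distance mainly ranks genes by the size of the change between them. The nearest gene to Pmepa1 was Spry2 (distance 0.106), an inhibitor of receptor tyrosine kinase signalling, at a log2 fold change of -2.15. Smad7 was nearest to Ppp1r13l (0.0791), Smad3 to Med24 (0.0320) and Skil to Arhgap11a (0.0460). Tgfb1 was nearest to Dap (0.0408), Tgfb3 to Fmn1 (0.0819) and Ltbp3 to Tmem71 (0.0484). Tgfbr1 was nearest to Kiz (0.0414) and Tgfbr2 to Ccni (0.0372). Tgfb2 had the most distant nearest gene, Olfr1217 (0.182).

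**Figure D5:**
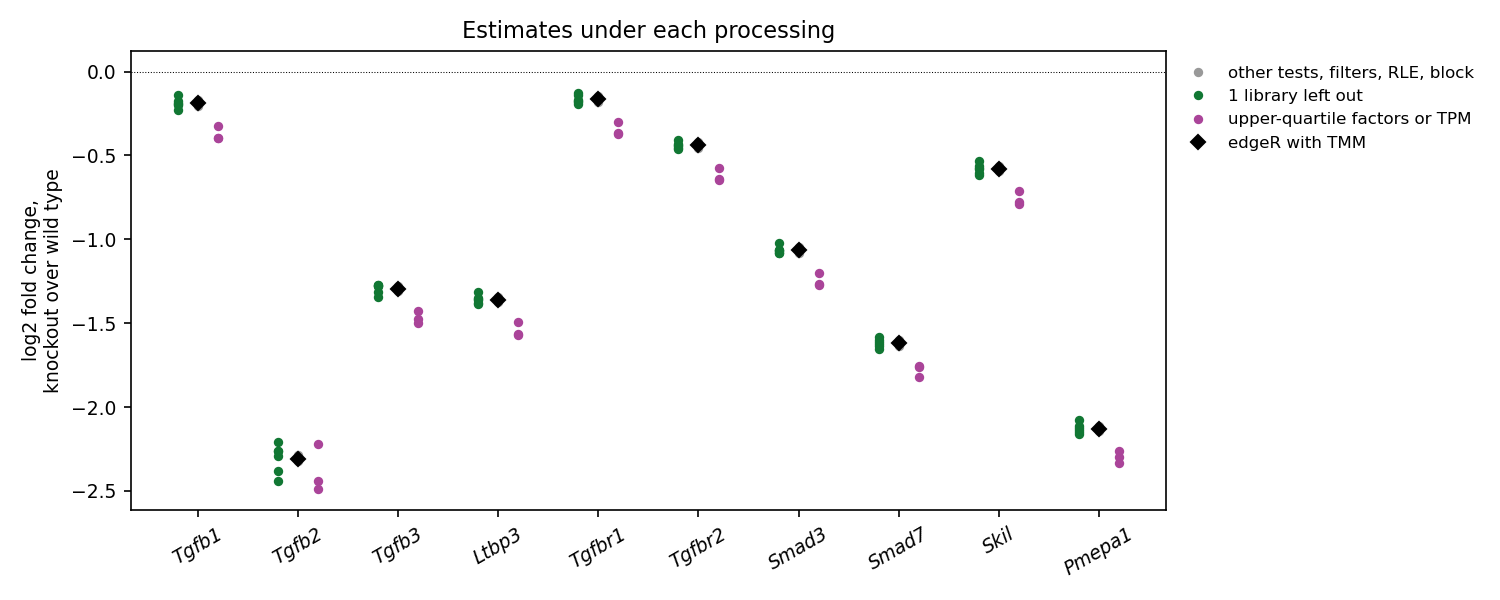
Log2 fold change, knockout over wild type, of the 10 genes under the main processing (black diamonds) and 15 others. Green points leave out 1 library, purple points use upper-quartile factors or deposited TPM and lie below the diamonds except for Tgfb2 on log2(TPM + 1), at -2.22, and every point is below 0.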

How the data were processed

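For 55487 genes the authors deposited raw counts as whole numbers, and TPM beside them, with 1 column per library. STAR 2.7.8a and featureCounts 2.0.1, and GRCm38 as build, are named without roles or settings, per the submitters' processing notes. Neither the annotation release, the strand setting nor the treatment of multi-mapping reads is given in the sources used here. The 12 single-library files equal the matching columns. The deposited TPM are counts divided by a length common to all libraries, then scaled to a fixed total.

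Symbols came from GENCODE M21 (55227 identifiers matched). Tests used edgeR 4.0.16 (filterByExpr, TMM, robust quasi-likelihood F test, two-sided) on 13022 genes, with Benjamini-Hochberg adjustment over all of them and a threshold of 0.05. It was also run on simulated data in which few genes changed, with equal numbers up and down. Most genes were called here, so that run does not show how the test performs in this comparison. SE derive from the fitted change and F. CPM use TMM-scaled library sizes.

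The members and lists were chosen with earlier results of these data known. All 10 members are named. From each pathway list up to 4 called genes with the smallest adjusted p are named, plus up to 2 against the list's main direction. For each member the nearest profile is named. Some genes this rule names are not reported here. Smad2, Id1, Id2, Id3 and the neighbours of Lyplal1 were named after their values were seen. So were Tgif2, Fst, Col1a1, Acvr2b, Chrd and the genes not called (Itgb6, Eng, Wwp1, Tgfbi, Col4a1, Sphk1, Bmp7). Alternatives used limma 3.58.1 and DESeq2 1.42.0 in R 4.3.3. Exact permutation tests used SciPy 1.17.1.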

Additional observations from a re-analysis of the deposited data

How the results depend on the processing

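Under 15 alternatives (DESeq2 or limma-voom in place of edgeR, RLE or upper-quartile scaling, no filter or one of 1 CPM in 3 libraries, limma-trend on TPM with a pseudocount of 1 or 0.1, a block for the replicate number, and each library left out), 10 of the 10 genes were called lower and 0 higher. The highest adjusted p over these alternatives was 0.0238 for Tgfbr1, without knockout replicate 1, and 7.36e-03 for Tgfb1, without knockout replicate 2. The count of all genes called ran from 10233 to 12030, against 10711. With the replicate block 10798 genes and all 10 members were called, and Tgfb2 stood at a log2 fold change of -2.31. Same-numbered libraries did not deviate together (correlations of deviations from group means -0.00742, 0.0416 and 0.0132), so the numbers were not taken to pair samples.

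Signs turned for 7 genes with small changes. With upper-quartile factors Bmp7 stood at -0.049, Col4a1 at -0.086, Eng at -0.078, Sphk1 at -0.11 and Iars2 at -0.020. On log2(TPM + 1) they stood at -0.12, -0.16, -0.15, -0.18 and -0.094, with Zfyve9 at -0.017. On log2(TPM + 0.1) they stood at -0.12, -0.16, -0.15, -0.18 and -0.095, with Zfyve9 at -0.018. Those 3 settings lower the median of all genes by 0.13 to 0.21 on the log2 scale. With single libraries left out, Sphk1 ranged from -0.011 to 0.079, below 0 without wild-type replicate 2 or knockout replicate 3, and Wwp1 from -0.089 to 0.0092, above 0 without knockout replicate 3. The cause was not tested. In the BMP and activin list, Acvr2b and Chrd were not called with DESeq2 (adjusted p = 0.0769 and 0.138), nor with edgeR Acvr2b without wild-type replicate 3 (adjusted p = 0.0595) and Chrd without knockout replicate 3 (adjusted p = 0.0744). Counts were low for Smad6 and Tgfbi, and 17 listed pathway genes were too low to test. Among genes called lower, counts were also low for Chrd (5 to 20 per library), Fst (5 to 47), Col1a1 (14 to 71) and Tgif2 (20 to 78).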
